A study of Mus musculus with 48 samples.

Results

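Galnt2 and Fgfr2 were the 2 longest gene models in a table of 26899 features counted in 4T1 cells, a line from a mouse mammary carcinoma, and among the most counted features of both the lysates and the precipitates. The members were the row with the symbol Galnt2 (ENSMUSG00000092329) and the row with the symbol Fgfr2 (ENSMUSG00000030849), 2 of the 26899. Both were chosen by their measured share of the counts in RIP and input libraries and by their absence or near absence from the input of CNOT7 cells, replicate 10, so their levels, RIP over input and the values of that library are given as a description, without a test. Tests were run on the differences between a construct and the vector, which the choice did not use apart from CNOT7 input replicate 10, so the comparison of CNOT7 input with vector input was also run without that library and is read from that fit. Cells carried a lentiviral FLAG-tagged human CNOT7 cDNA driven by a murine Pol2 promoter, 1 of 3 mutants of it, or a control vector with a non-coding stuffer, and all were selected with blasticidin. D40A is a mutation of the deadenylase active site, M141R of the surface that binds CNOT1 and E247A/Y260A of the surface that binds TOB1. RNA precipitated from native lysates with an anti-FLAG antibody (RIP) and RNA of the lysate itself (input) were sequenced. This gave 24 RIP and 24 input libraries in 10 groups of 5, or 4 for D40A, which lacks a replicate 7. Replicates carry the numbers 6 to 10. Nothing in the labels says that they came from separate cultures, so p-values measure only the spread between these samples.

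Galnt2 encodes a polypeptide GalNAc-transferase, an enzyme of the Golgi that starts mucin-type O-glycans by adding N-acetylgalactosamine to serine and threonine. Other glycosyltransferases then extend that first sugar. Fgfr2 encodes a receptor tyrosine kinase for fibroblast growth factors, which signals through adaptors such as Frs2 and Grb2 to the RAS and MAP kinase cascade, and which is known for its role in branching of the mammary epithelium. A count per gene depends on what the annotation calls the gene. Both models here reach far beyond the locus of the gene whose symbol they carry.

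The libraries held between 1305627 and 10719137 counts in RIP and between 337861 and 826768 in input. Every pair of replicates of a group differed by more than sampling noise (92 pairs, lowest chi-square per degree of freedom 4.98). Of the mammary epithelium markers, 11 of 12 names were in the table, with a summed level of 0.00770% to 0.0295% of the counts in the other 23 inputs and 0.0194% in CNOT7 input replicate 10. Esrp2, a splicing regulator of epithelia, had a median of 40 counts, Epcam 12 and Cdh1 13 in these 23 inputs. The keratins were thinly counted, with medians of 2 for Krt18, 1 for Krt8 and 1 for Krt19, the luminal ones, and the basal keratin Krt14 was at 0 in every input. Markers of stroma and blood cells (12 of 14 names in the table) summed to 0.000227% to 0.00414% in the same 23 inputs, with Pecam1, of endothelial cells, the most counted at a median of 5. CNOT7 input replicate 10 stood apart from the other lysates for the 2 models, so results that rest on it are given with and without it.

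The Galnt2 row was a composite of 2 loci. GENCODE M21 (GRCm38) gives its identifier the name Gm20388, on the plus strand of chr8:119910841-124345722, a span of 4434882 bases with 1 transcript of 16 exons. Exon 1 (119910841 to 119910939) lies in Usp10, which encodes a deubiquitinase, and exon 2 begins at 124295358 in the Galnt2 locus. The intron between them measured 4384418 bases, 98.9% of the span, and the exons made up 0.0891% of it. Galnt2 itself has another identifier in that annotation, ENSMUSG00000089704, at chr8:124231391-124345724 on the plus strand, and was not among the features analysed here. The 30 bases across the joint of exons 1 and 2, both coding, are shown because they are the only sequence that ties the distant start to Galnt2, with the Usp10 side in capitals:
Gm20388-201: CTCCACAACCCACAGggtgactggaatgac

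The Fgfr2 row had the gene's own identifier but a far start as well. Its span was chr7:130162451-133123350 on the minus strand, 2960900 bases, with 27 transcripts. A single transcript, Fgfr2-217, with 7 exons, reached the distant end, and the next longest spanned 103813 bases. The longest intron of Fgfr2-217 measured 2908817 bases, 98.2% of the span, between exon 2 (133081757 to 133081860) and exon 3 (130172817 to 130172939). Exon 1 lies in Ctbp2, which encodes a transcriptional corepressor. All exons of the model together covered 0.349% of its span. Among the 26555 features of the table with a position in that annotation, the spans of Galnt2 and Fgfr2 ranked 1 and 2, against a median of 14412 bases. The submitters' processing notes name mm9, so these GRCm38 positions describe the gene models and were matched by identifier only.

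**Figure D1:**
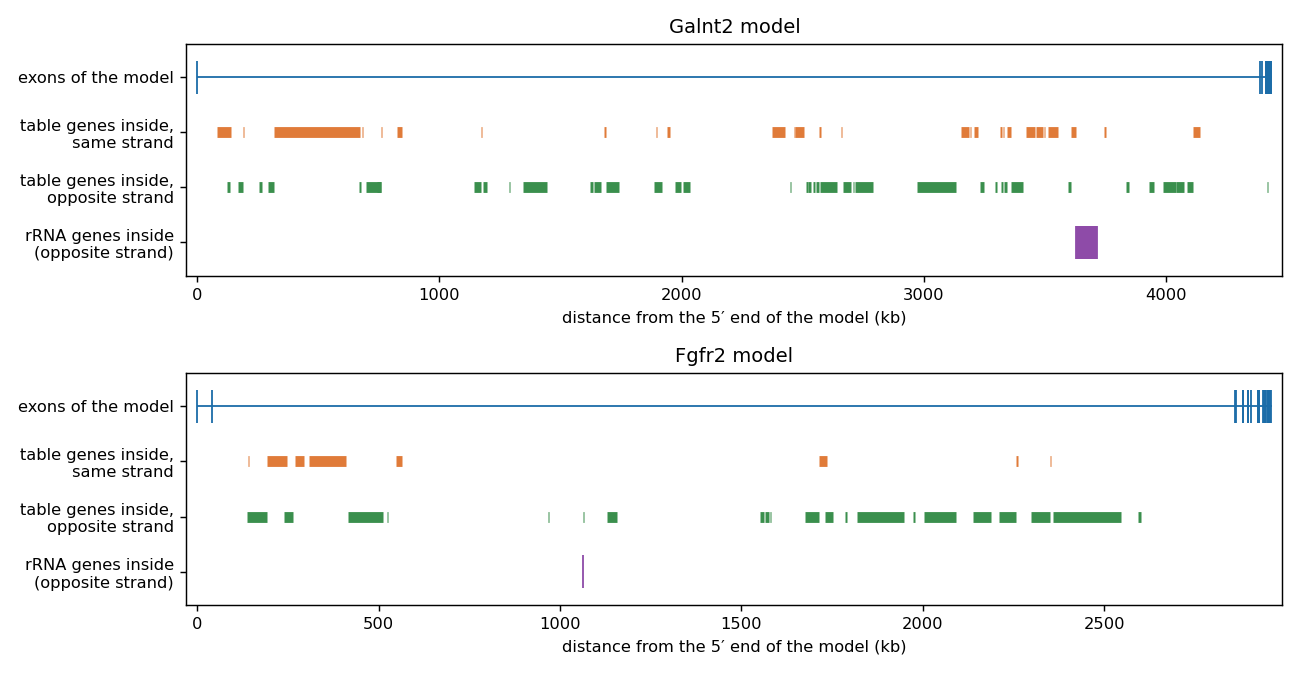
Map of the Galnt2 model (top) and the Fgfr2 model (bottom), with the distance in kb from the 5′ end of each model on the horizontal axis. The rows show the exons of the model, the features of the table that lie inside it on the same and on the opposite strand, and the annotated rRNA genes inside it. A first exon stands alone at the left of the Galnt2 model, and the Galnt2 exons are at the far right, 4384418 bases away.

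The spans enclosed many other genes. Inside the Galnt2 model the annotation placed 88 genes on the same strand, 31 of them in the table, and 119 on the opposite strand, 51 of them in the table. The Fgfr2 model enclosed 35 genes on its strand, 9 in the table, and 33 on the other, 21 in the table. The opposite strand of the Galnt2 model also holds 51 rRNA genes, 42 of them 5S genes named Rn5s or n-R5s, within 83261 bases from 123538786 to 123622046. 5S rRNA is the short RNA of the large ribosomal subunit, and in the mouse its genes form a tandem array. Of the 51 genes, 32 were identical to Rn5s (chr8:123598158-123598276, minus strand, 119 bases) over its whole length. Only 2 of the 51 rRNA genes were in the table, with 2 counts in all 48 libraries together. The table gives 1 number per feature and library, and where inside a span the reads fell was not analysed here.

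Galnt2 took a far larger share of the lysates than of the precipitates. With all counts of a library as the denominator, it held a median of 10.8% (lowest 6.15%, highest 18.1%) in the 23 inputs other than CNOT7 input replicate 10, which placed it at rank 2 of all features by median and between ranks 1 and 3 in each of these libraries. In the 24 RIP libraries it held a median of 0.651% (lowest 0.453%, highest 0.994%), rank 9 by median. Wilson 95% intervals were at most 0.107 percentage points to either side of a value, and intervals and limits cover only the error of counting: without molecular identifiers, several reads can come from 1 molecule.

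Vector inputs 6 to 10 held 18.1%, 9.22%, 15.1%, 10.8% and 8.87% of their counts in Galnt2. CNOT7 inputs held 16.8%, 8.63%, 14.4%, 10.9% and, in replicate 10, 0 of 344689 counts, which allows a share of up to 0.000870%. The first 4 CNOT7 values overlapped the vector inputs, and the last lay below every other lysate. D40A inputs 6, 8, 9 and 10 were at 14.2%, 13.1%, 10.4% and 6.80%. E247A/Y260A inputs 6 to 10 were at 14.4%, 8.45%, 12.7%, 7.56% and 6.15%, and M141R inputs at 11.9%, 12.04%, 10.7%, 9.91% and 6.28%. The same replicate numbers were high or low in most constructs: without CNOT7 input replicate 10, replicate 10 was lowest in 4 of 4 constructs, and replicate 6 was highest in 4 of 5, with M141R input 7 slightly above M141R input 6.

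In the precipitates Galnt2 varied less. Vector RIP libraries 6 to 10 were at 0.852%, 0.453%, 0.534%, 0.624% and 0.934%. CNOT7 RIP libraries were at 0.861%, 0.534%, 0.571%, 0.994% and 0.672%. These 2 groups overlapped almost completely. D40A RIP libraries 6, 8, 9 and 10 were at 0.773%, 0.558%, 0.932% and 0.754%, the 5 of E247A/Y260A at 0.893%, 0.462%, 0.631%, 0.849% and 0.567%, and the 5 of M141R at 0.597%, 0.705%, 0.523%, 0.903% and 0.521%. No mutant lay outside the range of the vector.

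Fgfr2 held fewer counts than Galnt2 in all inputs but CNOT7 input replicate 10, and its shares in lysate and precipitate lay closer together. It held a median of 1.09% (0.583% to 1.68%) in the 23 inputs other than CNOT7 input replicate 10 and 0.536% (0.379% to 0.713%) in the 24 RIP libraries, ranks 9 and 10 by median. Vector inputs 6 to 10 were at 1.55%, 1.00%, 1.21%, 0.963% and 0.583%. CNOT7 inputs were at 1.65%, 0.9498%, 1.23%, 0.779% and 0.0122% (42 counts in replicate 10, Wilson 95% interval 0.00902% to 0.0165%). The 42 counts put Fgfr2 at rank 512 of that library, against ranks 4 to 13 in the other inputs. D40A inputs 6, 8, 9 and 10 were at 1.68%, 1.29%, 0.764% and 0.609%, the 5 of E247A/Y260A at 1.54%, 1.10%, 1.09%, 0.698% and 0.666%, and the 5 of M141R at 1.55%, 1.24%, 1.14%, 0.898% and 0.714%. In each construct replicate 6 was the highest lysate, and replicate 10 was the lowest in the 4 constructs other than CNOT7, whose replicate 10 stood apart.

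The order of the replicate numbers was another in the precipitates. Vector RIP libraries 6 to 10 held 0.379%, 0.511%, 0.531%, 0.472% and 0.605% of their counts in Fgfr2, and CNOT7 RIP libraries 0.491%, 0.525%, 0.593%, 0.420% and 0.672%. The values for D40A RIP 6, 8, 9 and 10 were 0.549%, 0.578%, 0.396% and 0.713%. E247A/Y260A RIP libraries had 0.529%, 0.542%, 0.554%, 0.487% and 0.627%, and M141R RIP libraries 0.478%, 0.541%, 0.610%, 0.439% and 0.621%. Replicate 10, the lowest number in the lysates, was the highest in the precipitates of all 5 constructs, and replicate 9 was the lowest in 4 of 5.

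**Figure D2:**
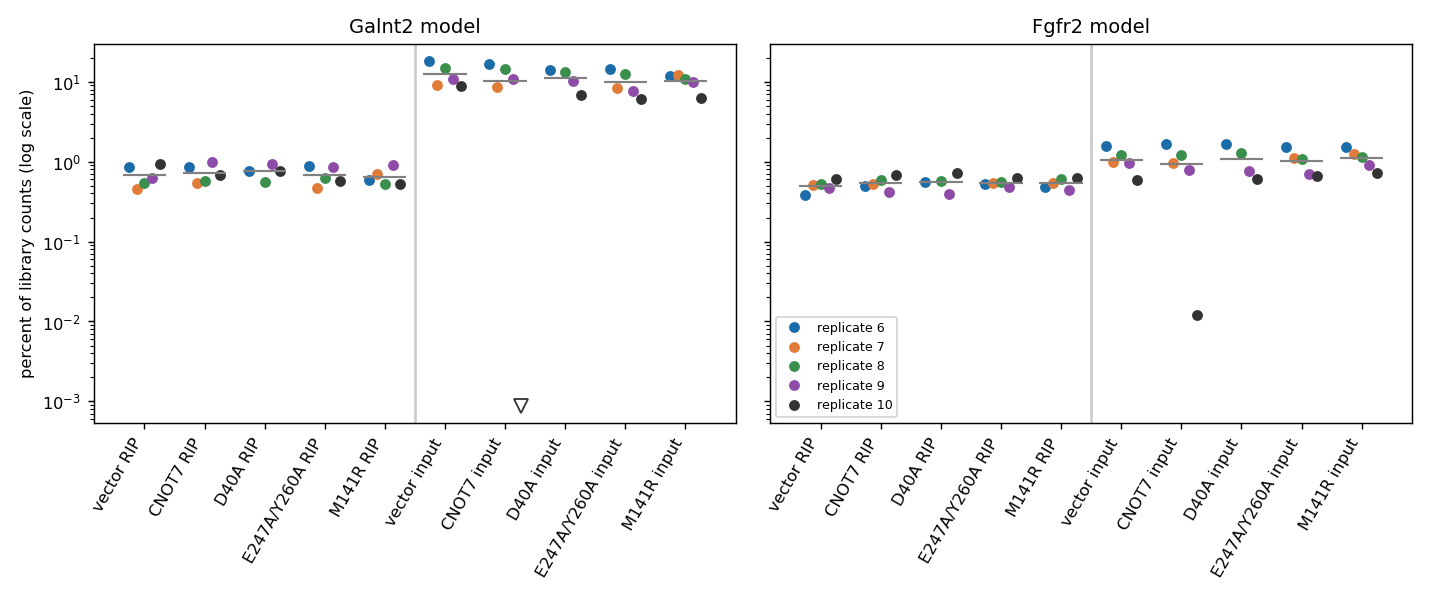
Percent of library counts (log axis) of the Galnt2 model (left) and the Fgfr2 model (right) in each of the 48 libraries, by group, with the replicate number as colour and the group mean as a grey line. The open triangle marks CNOT7 input replicate 10, which had 0 Galnt2 counts and is drawn at its limit of 3 counts, and the single low point on the right is the same library at 0.0122% for Fgfr2.

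The replicate number held more of the spread than the construct did. Between numbers lay 94.4% of the sum of squares of the Fgfr2 share over the 23 inputs and 78.2% over the 24 RIP libraries, against 1.69% and 5.88% between constructs. The figures for Galnt2 were 76.7% (inputs) and 55.9% (RIP) between numbers and 12.8% and 4.72% between constructs. Fgfr2 inputs of replicate 6 lay between 1.54% and 1.68%, and those of replicate 10, without the CNOT7 library, between 0.583% and 0.714%, so that the 2 sets did not overlap. The spread between numbers was computed for the 2 models only. Over all features tested, same-numbered libraries of a construct and the vector also deviated from their group means together. Those correlations ran from 0.152 to 0.719 in input and from 0.0377 to 0.479 in RIP, so the pattern is not shown to be particular to the models. What the numbers stand for is not given in the sources used here, and its part in the shares was not tested.

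The 2 models rose and fell together in the lysates but not in the precipitates. Over the 24 inputs their shares had a Pearson r of 0.89 and a Spearman rho of 0.86. Pearson's r was 0.83 without the 2 libraries farthest from the median and 0.84 without CNOT7 input replicate 10, and it fell to 0.37 over those 23 after the mean of each replicate number was subtracted. In the 24 RIP libraries r was −0.43 and rho −0.40. The former was −0.45 without the 2 farthest libraries and −0.14 within replicate numbers. Since the models were chosen by these shares, the correlations are given as a description, without a test, and both share the denominator of the library total.

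The ratio of the 2 counts to each other does not depend on how a library is scaled. Galnt2 had a median of 10.1 counts per Fgfr2 count in the 23 inputs with Galnt2 counts (7.67 to 15.2) and of 1.19 in the 24 RIP libraries (0.838 to 2.37). The 2 kinds of library did not overlap. Within RIP the mean ratio was 1.67 in replicate 6 and 1.97 in replicate 9, against 1.02, 0.986 and 1.07 in replicates 7, 8 and 10. By construct the mean RIP ratios lay between 1.26 and 1.45. Since Galnt2 and Fgfr2 were chosen by RIP over input, this difference is a description.

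Within pairs of RIP and input of the same construct and number, the share of Galnt2 was lower in RIP in 23 of 24 pairs, by a median log2 ratio of −4.12 over the 23 (17.4-fold lower at the median; −4.82 to −3.15). In vector pairs 6 to 10 the input share was 21.2, 20.4, 28.2, 17.4 and 9.49 times the RIP share. In the pair of CNOT7 replicate 10, whose input had 0 counts, the RIP share was at least 772-fold higher. Fgfr2 was lower in RIP in 21 of the 24 pairs, with a median of −1.02 over the 23 other pairs (−2.03 to 0.23). Vector pair 10 and D40A pair 10 were the exceptions among these 23.

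The direction of both depended on the scale. ENSMUSG00000045999, which GENCODE M21 does not list, alone held a median of 61.1% of the RIP counts. With TMM scaling the median over the same 23 pairs was 0.23 for Galnt2 and 3.52 for Fgfr2, with DESeq2 size factors 1.04 and 4.26, and with the counts outside the 20 most counted RIP features as the denominator 1.13 and 4.25. Over all 6931 features tested, the median log2 ratio of RIP to input was −4.87 by library size, −0.73 by TMM and −0.03 by DESeq2. Fgfr2 lay above that median on all 3 scales and Galnt2 above it by less than 2 log2 units on each.

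**Figure D3:**
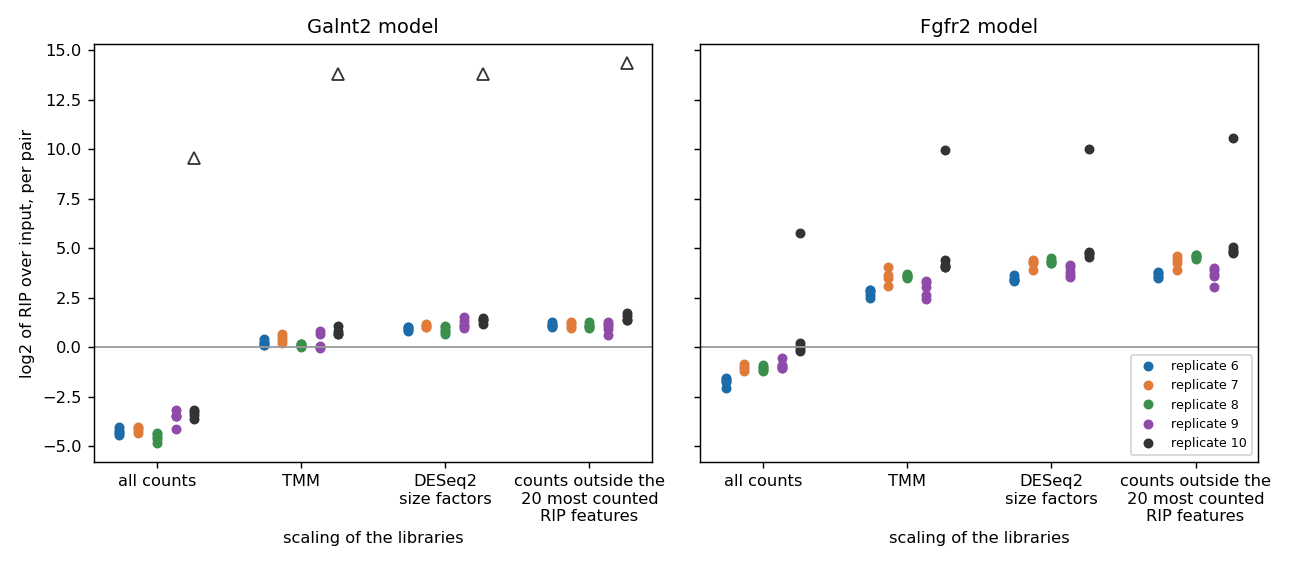
Log2 of RIP over input for each of the 24 pairs under 4 scalings, Galnt2 on the left and Fgfr2 on the right, with the replicate number as colour. Open triangles are lower limits for the CNOT7 pair 10, whose input had 0 Galnt2 counts. Values lie below 0 for nearly all pairs when all counts are the denominator and above 0 for nearly all under the 3 other scalings.

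Around the 2 models in rank stood features with far smaller shares of the lysates. Cntnap5b, a neurexin family gene ranked 8 by mean RIP count, held a median of 0.831% of RIP and 0.00188% of the 23 inputs, and Il1rapl1, an interleukin receptor accessory protein family gene ranked 11, 0.437% and 0.000918%. Of the 10 features with the most RIP counts, Galnt2 and Fgfr2 were the 2 with a lower share of all counts in RIP than in input. They were not alone further down. Among the 20 most counted, Ccdc107 (rank 14) held a median of 11.2% of the 23 inputs and 0.257% of RIP. Gm42418, Slc38a6, ENSMUSG00000103057 and Gm4876 also had lower median shares in RIP, and the others of the 20 had higher ones. With the other 3 scalings, however, Galnt2 was higher in RIP in 22 or 23 of 23 pairs and Fgfr2 in 23 of 23.

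No difference between a construct and the vector passed a test for either model. The question was whether the wild-type or mutant protein brought down more or less of the RNA counted on the 2 models than an empty vector did, and whether the lysates differed. In edgeR's quasi-likelihood test, adjusted by Benjamini-Hochberg over 6931 features, neither model passed the threshold in any of the 8 comparisons of a construct with the vector. Galnt2 was at a log2 fold change of −0.19 ± 0.68 (SE) in CNOT7 RIP, with a 95% interval of −1.51 to 1.14, and at 0.07 ± 0.72 in D40A RIP, −0.27 ± 0.68 in E247A/Y260A RIP and −0.39 ± 0.68 in M141R RIP (edgeR adjusted p from 0.981 to 1). Fgfr2 was at −0.14 ± 0.53 in CNOT7 RIP (95% interval −1.17 to 0.90), 0.03 ± 0.56 in D40A RIP, −0.17 ± 0.53 in E247A/Y260A RIP and −0.21 ± 0.53 in M141R RIP (edgeR adjusted p from 0.989 to 1). The background was 0% of the features tested in each of the 8 comparisons, with 27 to 476 features at an unadjusted p under 0.05. DESeq2 called 4 features in M141R input and 0 in the other 7 comparisons. The standard errors above come from a spread estimated over all 48 libraries together. With only the 2 groups in the fit, Galnt2 was at −0.045 ± 0.21 (SE) in CNOT7 RIP and 0.15 ± 0.24 in D40A RIP.

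The median over all features tested was 0.45 in D40A RIP, −0.02 in CNOT7 RIP, 0.17 in E247A/Y260A RIP and 0.19 in M141R RIP. Both models lay below the median feature in each of these comparisons. The D40A RIP median depended on the features kept. It was −0.05 over the 208 features with at least 10 counts in every library, and 0.02 with only the 2 groups in the fit. In the lysates D40A was at −0.04 ± 0.72 for Galnt2 and 0.16 ± 0.56 for Fgfr2, E247A/Y260A at −0.37 ± 0.68 and −0.09 ± 0.53, and M141R at −0.29 ± 0.68 and 0.06 ± 0.53 (edgeR adjusted p 1.00 for each). CNOT7 input differed from vector input by −0.27 for Galnt2 and −0.18 for Fgfr2, values that include replicate 10. Without that library they turned to 0.06 ± 0.45 and 0.14 ± 0.45 (edgeR adjusted p = 1 for both), and the standard errors of the other Galnt2 comparisons fell to between 0.43 and 0.45. Two-sided exact permutation tests on the percent of library counts gave p from 0.317 to 0.992 over the 16 comparisons, with CNOT7 input replicate 10 left out (adjusted p = 0.992), where the smallest p possible was 0.00794 with 5 libraries against 5 and 0.0159 with 4 against 5. All 16 pairs of groups overlapped. Paired by replicate number, the Galnt2 share was lower than in the vector lysate in 5 of 5 E247A/Y260A inputs, by a mean log2 ratio of −0.35 ± 0.17 (SD, n = 5), and in 4 of 4 D40A inputs, by −0.25 ± 0.15 (SD, n = 4). Two-sided exact sign-flip permutation tests gave p = 0.0625 and 0.125, the smallest that 5 and 4 pairs can give (adjusted p = 0.5 and 0.667 over 16 tests). The Fgfr2 share was higher than in vector RIP in 5 of 5 E247A/Y260A RIP libraries, by 0.14 ± 0.19 (SD, n = 5, exact sign-flip permutation p = 0.0625, adjusted p = 0.5). In the other 13 comparisons at least 1 pair went against the rest.

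**Figure D4:**
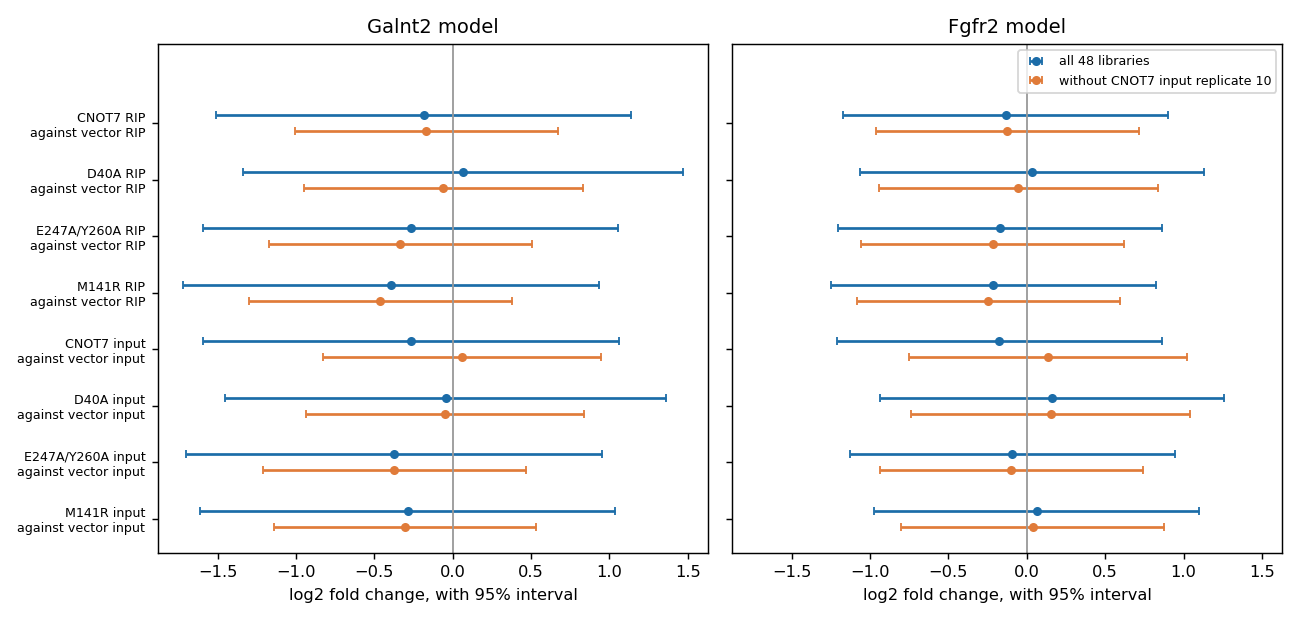
Log2 fold change of each construct against the vector, in RIP and in input, with 95% intervals, for Galnt2 (left) and Fgfr2 (right), from the fit of all 48 libraries (blue) and of the 47 without CNOT7 input replicate 10 (orange). All intervals cross 0, and those of Galnt2 are shorter without that library.

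CNOT7 input replicate 10 was the only library with counts in the table features that the models enclose on their own strand. The table lists only features with at least 1 count in all libraries together, so a gene counted nowhere is not in it. The 31 table features inside the Galnt2 model on its strand had all their counts, 320 in sum, in this library and 0 in each of the other 47, so each is in the table through this library alone. Ctu2, a tRNA thiolation factor, had 221 of them. Gse1 had 20 counts there, Gm20681 12 and Spg7, a mitochondrial protease, 6. The 9 table features on the strand of the Fgfr2 model likewise had their counts in this library alone, 39 in sum, with Eef1akmt2, a lysine methyltransferase, at 25. Usp10, whose first exon region holds the Galnt2 start, had 2 counts in this library and 0 or 1 in every other, and Ctbp2, at the Fgfr2 start, had 4 against 0 to 8 in the other inputs.

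On the opposite strand inside the same spans the sums lay within the range of the other lysates. The 51 features in the Galnt2 model summed to 252 counts in CNOT7 input replicate 10 and to 201 to 847 (median 520) in the other 23 inputs, or 0.0731% against 0.0595% to 0.115% of the library. Single features differed more. Of the 6 with the most counts, Gm15775, an RNA antisense to Galnt2, had 2 counts against 44 to 174 and Ankrd11, a chromatin regulator, 13 against 17 to 94, both below the other inputs. The other 4 lay inside the range: 1810008B01Rik, also antisense to Galnt2, had 67 against 32 to 168 counts, Gins2, a subunit of the replicative helicase complex, 37 against 14 to 116, Fanca, of the Fanconi anaemia pathway, 26 against 14 to 72, and Dbndd1 4 against 4 to 51.

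The 21 opposite-strand features in the Fgfr2 model summed to 89 counts against 59 to 278 (median 111). Zranb1, a deubiquitinase, had 64 against 29 to 217 counts and Htra1, a secreted protease, 10 against 6 to 26. Of the next 4, Tacc2, a centrosomal protein, had 0 against 2 to 17, and Pstk, Plekha1 and Btbd16 had 3 or 4 counts, inside the ranges of the other inputs. For both models the sum on the opposite strand was inside the range of the other inputs in this library. The same-strand sums cannot be set against it, since those features are in the table through this library alone.

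**Figure D5:**
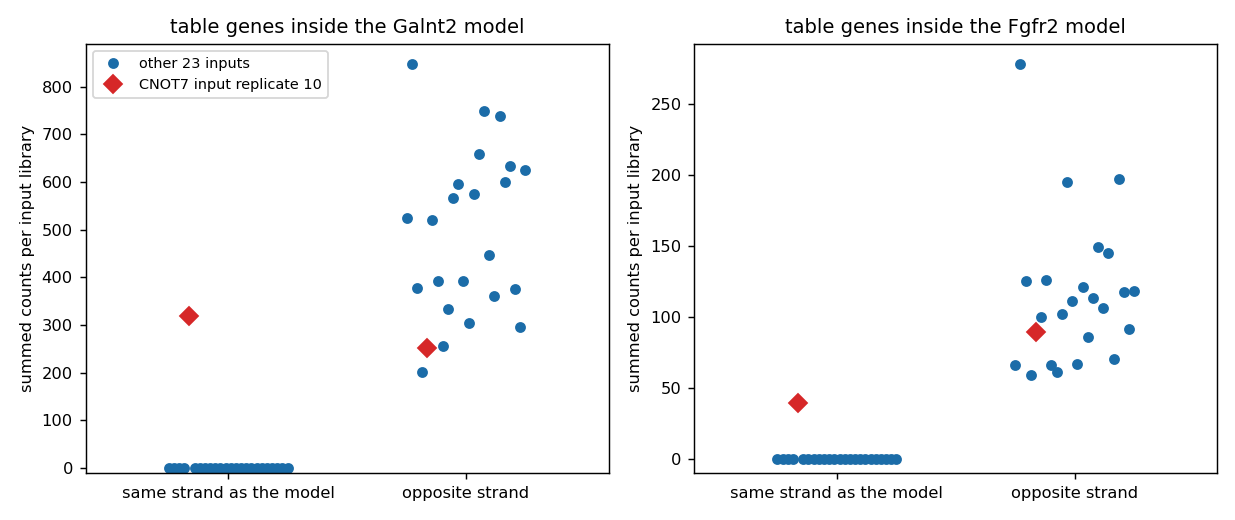
Counts per input library summed over the table features that lie inside the Galnt2 model (left) and the Fgfr2 model (right), on the strand of the model or on the opposite strand. CNOT7 input replicate 10 (red diamond) has 320 and 39 counts on the same strand, where the other 23 inputs (blue) are all at 0 and the features are in the table through this library alone, and lies among them on the opposite strand.

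Over the whole table, 296 features lay inside the span of another feature of the table on the same strand. Of these, 246 (83.1%) had counts in no library other than CNOT7 input replicate 10 and so are in the table through it alone. Of the other 50, 10 were counted in it, against 7 to 16 in each of the other inputs, so among features counted elsewhere too this library lay inside the range. Among 3017 features inside a span on the opposite strand only, 29 had counts in this library alone, and 1363 of the other 2988 were counted in it, against 1100 to 1674 in each of the other inputs. In all, 401 features had counts in this library alone, 246 of them inside a same-strand span. Another input had between 6 and 165 features of its own. Among RIP libraries D40A RIP 9 had more, 654, of which 5 lay inside such a span, and M141R RIP 9 had 249, of which 2 did. Features with at least 0.1% of the counts in the other inputs numbered 109, of which 22, Galnt2 included, had 3 or fewer counts in CNOT7 input replicate 10. The median span of these 22 was 88.9 kb, with 11 of at least 100 kb, and that of the others with a position (84 of 87) was 15.5 kb, with 11 of at least 100 kb. After Galnt2, Patl2 was the largest of the 22, with 1 count against 5166 to 10952. The settings of the read counting for each library are not given in the sources used here, and their part in these values was not tested.

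Which features were most like the 2 models in pattern depended on CNOT7 input replicate 10. Over the 24 inputs, the 5 with the highest Pearson r with Galnt2 on log2(CPM + 1), among 2851 features with a mean of at least 10 counts, were Il11ra1, Gm20532, Ralgps1, Gm21985 and a (the agouti gene), with r from 0.99 to 1.00. For Fgfr2 they were Gm15418, Drg1, Airn, Tulp2 and Gm16343 (r from 0.99 to 1.00). These 10 had 0 to 4 counts in CNOT7 input replicate 10, which follows from a ranking that includes this library. Without it the 5 most like Galnt2 were C230088H06Rik, Prickle3, Chid1, Gm4673 and Wbscr25 (r from 0.90 to 0.94), none of them among the former 5, and they had 5, 68, 238, 404 and 128 counts in the library left out. Those most like Fgfr2 were Gm15418 (r = 0.98), the 1 that remained, Rnf141, Slc19a1, Samd11 and Gm4673, with 2, 4, 1, 97 and 404 counts there. In the 24 RIP libraries, among 887 features, C230088H06Rik (r = 0.86), Gm12868, Ralgps1, Tatdn1 and Gm17103 were most like Galnt2, while Il1rapl1 (r = 0.88), Vwa3a, Dcaf10, Tmtc2 and Itga9 were most like Fgfr2. Gm4673 was among the 5 of both models over the 23 inputs, and no feature was over the 24 inputs or the 24 RIP libraries. These correlations are descriptions, and the points share library totals and replicate numbers.

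The other genes of the 2 pathways were counted far more thinly than the models. Of 76 genes of 6 lists in the table (GalNAc-transferases, O-glycan extension, FGF receptors, ligands, signal carriers, targets and inhibitors), 75 had a mean under 10 counts per library. Of the 27 that passed the filter on low counts, 3 were higher and 11 lower in RIP than in input by edgeR's quasi-likelihood test after TMM scaling. The background over all 6931 features was 8.4% higher and 46.8% lower (582 and 3241), but DESeq2 gave 1402 and 1272, library size alone 21 and 6908, and the fit without CNOT7 input replicate 10 1080 and 2452. Without that library 31 of the list genes were tested, 5 higher and 8 lower, and by DESeq2 4 of the 27 were higher and 2 lower. The median over the 27 was −0.68, beside −0.73 over all. None of the 27 was called in any comparison of a construct with the vector.

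Among the GalNAc-transferases, 2 of 5 tested were higher and 1 lower. Galnt13 had a log2 ratio of 2.13 ± 0.50 (SE) and Galnt7 of 1.06 ± 0.37 (edgeR adjusted p = 0.000277 and 0.0138), both negative by library size, at −3.13 for Galnt7 and both also higher by DESeq2. Galnt1, a broadly expressed member, had a median of 14 counts in the 23 other inputs and 1.5 in RIP, a log2 ratio of −1.24 ± 0.28 (edgeR adjusted p = 0.000145), a call lost by DESeq2 (−0.60, adjusted p = 0.109). The RIP and input counts of Galnt7 were 0 to 25 and 0 to 11. St3gal2, a sialyltransferase, and C1galt1c1, the chaperone of the enzyme that adds galactose, were lower at −1.36 ± 0.31 and −1.93 ± 0.59, the 2 of 2 tested in the extension list, and neither was by DESeq2 (−0.76 and −0.59, adjusted p = 0.0713 and 0.447).

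Among the FGF receptors other than Fgfr2, Fgfr3 was lower at −1.18 ± 0.34 (edgeR adjusted p = 0.00258), though not by DESeq2 (−0.58, adjusted p = 0.181), and Fgfr1 did not pass at −0.58 ± 0.40, with medians of 9 and 5 counts in the 23 inputs. Of 4 ligands tested, Fgf14 was higher at 1.42 ± 0.40, negative by library size (−2.82), and Fgf17 was lower at −1.08 ± 0.44. DESeq2 also called Fgf14 but not Fgf17 (−0.43, adjusted p = 0.539). Of 9 signal carriers tested, 3 were lower, among them the kinase Braf at −1.95 ± 0.40, which was also lower by DESeq2. Of 5 targets and inhibitors tested, Spred1 (−1.46 ± 0.48), Spry2 (−1.11 ± 0.46) and the phosphatase Dusp4 (−0.90 ± 0.37) were lower, none of them by DESeq2. Without CNOT7 input replicate 10 the calls of Fgf17, Spry2 and Dusp4 were lost (edgeR adjusted p = 0.144, 0.154 and 0.152). Small structural RNAs were lower in 5 of 5 tested: Rn7s1 had a median of 1661 counts (0 to 3243) in the other 23 inputs and 0 in CNOT7 input replicate 10, and Rmrp had 190 (59 to 408) and 227.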

How the data were processed

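RNA of RIP and input libraries of 4T1 cells was sequenced from a directional kit. The authors deposited whole-number read counts per gene, without normalization; the submitters' processing notes name BWA, HTSeq and mm9, while versions, annotation, counting mode and strand are not given in the sources used here. No row lacked a gene and 0 columns of values were left unused. Of 26899 identifiers, 26555 were found in GENCODE M21 (GRCm38), from which positions, strands and the printed sequences come.

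From the deposited counts, shares of library totals were computed with Wilson 95% intervals, and 3 counts were taken as the limit that a count of 0 allows. Features passing filterByExpr (6931) were fitted in all 48 libraries and 10 groups in edgeR 4.0.16 (R 4.3.3) with TMM factors and its two-sided quasi-likelihood test, adjusted by Benjamini-Hochberg, at a threshold of 0.05. RIP against input was the mean of 5 RIP groups against that of 5 input groups, tested for gene lists only. Standard errors were taken from the fold change and its F statistic. The scripts were tested on simulated data. Python 3.11.15, numpy 2.4.6, pandas 2.3.3, scipy 1.17.1 and matplotlib 3.10.9 did the rest. TMM factors ran from 0.147 to 0.350 in RIP and from 3.86 to 5.54 in input.

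The members and lists were chosen with earlier results of these data known. Genes were named by rule: the 2 models; list members past the threshold, up to 4 per direction, or else the most counted; the 5 features of highest r with each model; up to 10 most counted RIP features; and up to 6 of the most counted genes inside each span. The same-strand genes inside the spans, Usp10, Ctbp2, Patl2, Esrp2, Cdh1, Epcam, Krt14 and Rn5s were named after their values were seen. So were Ccdc107, Gm42418, Slc38a6, ENSMUSG00000103057 and Gm4876. Single values of some list genes and a repeat sequence are not reported here.

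Same-numbered libraries of the input comparisons deviated together (lowest correlation of deviations from group means 0.152), and each input was taken from the lysate of its RIP. Alternatives were DESeq2 1.42.0, other scalings and filters, the replicate number as a block, 2 groups per fit, exact permutation tests and each library left out. Fits and lists without CNOT7 input replicate 10 in the other comparisons, the tests paired by replicate number, the genes inside the spans and the shares by replicate number were added after seeing the data.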

Additional observations from a re-analysis of the deposited data

How the results depend on the processing

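Neither model passed the threshold in any test of a construct against the vector: 157 tests of Galnt2 and 165 of Fgfr2 gave a smallest adjusted p of 0.5 each, in tests paired by replicate number that cannot go below an unadjusted 0.0625. The signs of these small differences were not stable. By library size alone, Galnt2 was at 0.10 in CNOT7 RIP and 0.00425 in E247A/Y260A RIP, and Fgfr2 at 0.11 in CNOT7 RIP, 0.13 in E247A/Y260A RIP and 0.11 in M141R RIP. The log2 ratios of mean shares behind the exact permutation tests turned in the same 5 comparisons, at 0.0965, 0.00242, 0.113, 0.132 and 0.107. D40A RIP turned to −0.13 (Galnt2) and −0.10 (Fgfr2) without a filter on low counts, to −0.18 and −0.12 by library size without the 20 most counted RIP features, and to −0.0612 and −0.0550 without CNOT7 input replicate 10. D40A input turned for Galnt2 to 0.0576 by DESeq2 and 0.00304 with only the 2 groups in the fit. Fgfr2 in E247A/Y260A RIP turned to 0.0109 by DESeq2, 0.00801 with at least 10 counts in every library, which leaves Galnt2 out, and 0.0486 with only the 2 groups, and in E247A/Y260A input to 0.00430 with at least 10 counts.

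With the replicate block Galnt2 in D40A RIP turned to −0.00495 and no other sign or call of the members changed. In the comparisons of construct RIP with vector RIP, 3 of 5 pairs of the same number, or 3 of 4 for D40A, had correlations over 0.1. All were positive, from 0.0377 to 0.479, and the RIP shares of the models varied with the number too. The main fit did not pair these libraries, so the block and the paired tests are given beside it. The block called 622 features higher and 3504 lower in RIP than in input. In the exact sign-flip tests paired by replicate number, the mean log2 ratio turned for Galnt2 to 0.109 in CNOT7 RIP and 0.0126 in E247A/Y260A RIP, and for Fgfr2 to 0.111, 0.144 and 0.111 in CNOT7, E247A/Y260A and M141R RIP and −0.0156 in D40A input.

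With 1 library left out at a time, Galnt2 ranged from −0.0480 to 0.20 in D40A RIP, −0.60 to 0.0573 in CNOT7 input and −0.26 to 0.21 in D40A input. Fgfr2 ranged from −0.24 to 0.0442 in CNOT7 RIP, −0.0878 to 0.17 in D40A RIP, −0.58 to 0.14 in CNOT7 input, −0.23 to 0.42 in D40A input, −0.37 to 0.15 in E247A/Y260A input and −0.15 to 0.31 in M141R input. The ranges in the other comparisons kept their sign.

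RIP over input as the median over 24 pairs, with the CNOT7 pair 10 at its bound, was −4.11 for Galnt2 and −1.001 for Fgfr2. It turned to 0.25 and 3.52 with TMM, 1.06 and 4.27 with DESeq2 size factors, and 1.15 and 4.33 with the counts outside the 20 most counted RIP features. Of the list genes, 0 were called higher and 27 lower by library size, and 4 higher and 2 lower by DESeq2. Without CNOT7 input replicate 10, 5 were higher and 8 lower. Over all features the calls were 21 higher and 6908 lower by library size, 1402 and 1272 by DESeq2, 1455 and 1297 by library size without the 20 features, 2089 and 3414 without a filter, 66 and 78 of 208 features with at least 10 counts, and 1080 and 2452 without CNOT7 input replicate 10. Without a filter 44 features were called in CNOT7 input, 2 in each RIP comparison and in M141R input, and 0 in the other 2. The cause of these changes was not tested. With means under 10 counts per library in 75 of 76 list genes, the depth limits how small a difference the list genes can show.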
